A study of Mus musculus with 172 samples.

Results

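Hypoxia-inducible factors (HIFs) are transcription factors whose alpha subunits are hydroxylated by prolyl hydroxylases when oxygen is present, bound by the von Hippel-Lindau protein and degraded. When oxygen falls the alpha subunit persists, pairs with *Arnt* and raises genes for glucose use, blood vessel growth, collagen modification and mitochondrial turnover. The level of HIF protein is set mainly after translation, so that the mRNA of *Hif1a* need not follow HIF activity. Levels and changes after sleep deprivation (SD) were examined here for 8 genes of this system. The genes were chosen by name, with earlier results of these data known. All 8 were listed among the 14896 genes of the cortex tables and the 14107 genes of the liver tables. They are *Hif1a*, which encodes the HIF-1 alpha subunit, the collagen prolyl 4-hydroxylase subunits *P4ha1* and *P4ha2*, the HIF prolyl hydroxylases *Egln1* (PHD2) and *Egln3* (PHD3), the secreted factors *Vegfa* and *Adm*, and the mitophagy receptor *Bnip3*.

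RNA-seq was read from cerebral cortex and liver of young adult male mice that were either sleep deprived by gentle handling for 6 h from light onset (SD) or left undisturbed in another room (Ctr), all killed at ZT6, the end of the SD. The libraries compared are 39 pools per condition and tissue, each library made from RNA pooled over the mice of 1 genotype. BXD79, BXD85 and BXD101 had fewer mice than the other lines, and for BXD85 and BXD101 a library may stand for 1 mouse, since only 1 per condition is given for the plasma taken at the same collection. The pools come from 33 BXD/RwwJ lines (inbred lines made by crossing C57BL/6J and DBA/2J mice), 4 pools of the parental strains C57BL/6J (B6, pools B61 and B62) and DBA/2J (D2, pools DB1 and DB2), each strain sampled at the start and at the end of the study, and 2 pools of their reciprocal F1 hybrids (BD and DB). Another 4 BXD/TyJ lines (BXD05, BXD29, BXD29t and BXD32) were kept apart. A line's SD and Ctr pools are different mice, and a pool hides the differences between its mice. Libraries held about 18995500 to 28998900 counted reads in cortex (medians 22170300 in Ctr and 22713300 in SD) and 4681100 to 8269400 in liver (medians 6752510 and 6563240). Of the 8 neuron and glia markers, 8 were listed in cortex and 5 in liver, where *Snap25*, *Slc17a7* and *Gad1* were not listed. Of the 8 hepatocyte markers, 8 were listed in liver and 1 (*Ttr*) in cortex. In bulk tissue, fewer cells of a type and less RNA per cell cannot be told apart.

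The genes lie on 6 chromosomes of mouse build NCBIM37 (mm9) by the GENCODE annotation. *Hif1a* spans chr12:75002362-75048517 and *Egln3* chr12:55279968-55304847. *P4ha1* spans chr10:58786044-58836052 and *P4ha2* chr11:53913597-53945167. *Egln1* spans chr8:127432496-127473154 and *Vegfa* chr17:46153942-46169326. *Adm* spans chr7:117771175-117773331 and *Bnip3* chr7:146082519-146101202. The counts cover whole genes, so the exons of a gene are not told apart.

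HIF binds a short core, searched here as ACGTG or GCGTG on both strands in the RefSeq promoters of build GRCm38.p6, from 250 bases before to 50 bases after each annotated start. All 8 genes matched a RefSeq promoter and *Vegfa* matched 2 start sites. At least 1 core was found for 8 of 8 genes, in 8 of their 9 promoters, against 43.8% of 32851 promoters of all genes. The core that starts with A was in 19.6% and the core that starts with G in 32.4% of all promoters. *Bnip3* held 5 cores, *P4ha2* 4, *Hif1a* and *P4ha1* 3 each, *Egln1* and *Adm* 2 each and *Egln3* 1. *Vegfa* held 2 at its downstream start site and 0 at the upstream one, so its place in the 8 of 8 rests on the downstream start alone. A palindromic CACGTG was counted as overlapping cores on both strands. Such matches are a description of letters and not of binding. The stretches before the start site that hold the cores are shown, 5′ to 3′ on the strand of the gene with cores in capitals, for the 4 genes that rose in both tissues (*P4ha1*, *P4ha2* with 3 of its 4 cores, *Egln1* and *Adm*) and for *Vegfa* and *Bnip3*, which changed in opposite directions in the tissues.
P4ha1, chr10:59323118-59323295, plus strand: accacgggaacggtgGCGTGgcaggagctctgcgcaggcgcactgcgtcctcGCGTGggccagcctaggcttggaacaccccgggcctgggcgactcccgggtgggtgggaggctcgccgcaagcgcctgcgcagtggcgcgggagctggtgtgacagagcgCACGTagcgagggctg
P4ha2, chr11:54100802-54100874, plus strand: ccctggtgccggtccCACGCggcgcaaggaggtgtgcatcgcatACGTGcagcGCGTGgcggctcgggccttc
Egln1, chr8:124949303-124949395, minus strand: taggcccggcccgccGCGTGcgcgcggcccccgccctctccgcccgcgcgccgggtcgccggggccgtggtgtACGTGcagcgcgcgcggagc
Adm, chr7:110627552-110627622, plus strand: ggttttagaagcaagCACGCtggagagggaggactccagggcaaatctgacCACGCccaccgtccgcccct
Vegfa, chr17:46025355-46025396, minus strand: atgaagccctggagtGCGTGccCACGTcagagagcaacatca
Bnip3, chr7:138909522-138909638, minus strand: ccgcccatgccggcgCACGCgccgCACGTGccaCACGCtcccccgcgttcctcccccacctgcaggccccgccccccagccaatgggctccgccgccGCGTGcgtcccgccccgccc
Counted from the start site, the cores of *P4ha1* begin at bases -163, -126 and -16 and the printed cores of *P4ha2* at bases -107, -78 and -69. Both *Vegfa* cores lie close together, beginning at bases -218 and -211 from the downstream start. On the minus strand, that promoter (chr17:46025114-46025413) lies further into the gene than the upstream one (chr17:46032328-46032627). The printed *Vegfa* stretch is therefore not at the 5′ end of the gene, and whether it acts as a promoter was not tested.

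After SD, *P4ha1*, *P4ha2*, *Egln1* and *Adm* rose in both tissues and *Hif1a* fell in both. *Vegfa* rose in cortex and fell in liver, whereas *Bnip3* fell in cortex and rose in liver. *Egln3* fell in liver and did not pass the test in cortex. A change was called where the p of limma on log2 CPM (log2 of the reads scaled to the library total), adjusted over every gene of the tissue by the method of Benjamini and Hochberg, was under 0.05. In cortex 5 of 8 genes were higher, 2 lower and 1 was not called, and the median log2 fold change was 0.30. Calls are common in this tissue, since 68.4% of all genes tested were called, 33% as higher and 35.4% as lower, with a median log2 fold change of -0.01. In liver 5 were higher, 3 lower and 0 not called, with a median log2 fold change of 0.14. There 44.2% of all genes were called, 21.5% higher and 22.6% lower, with a median log2 fold change of -0.0015. Each call is therefore given with its size and with the overlap of the groups. The ± after a fold change or a difference is its standard error, and the ± after a mean level is the SD over 39 pools.

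**Figure D1:**
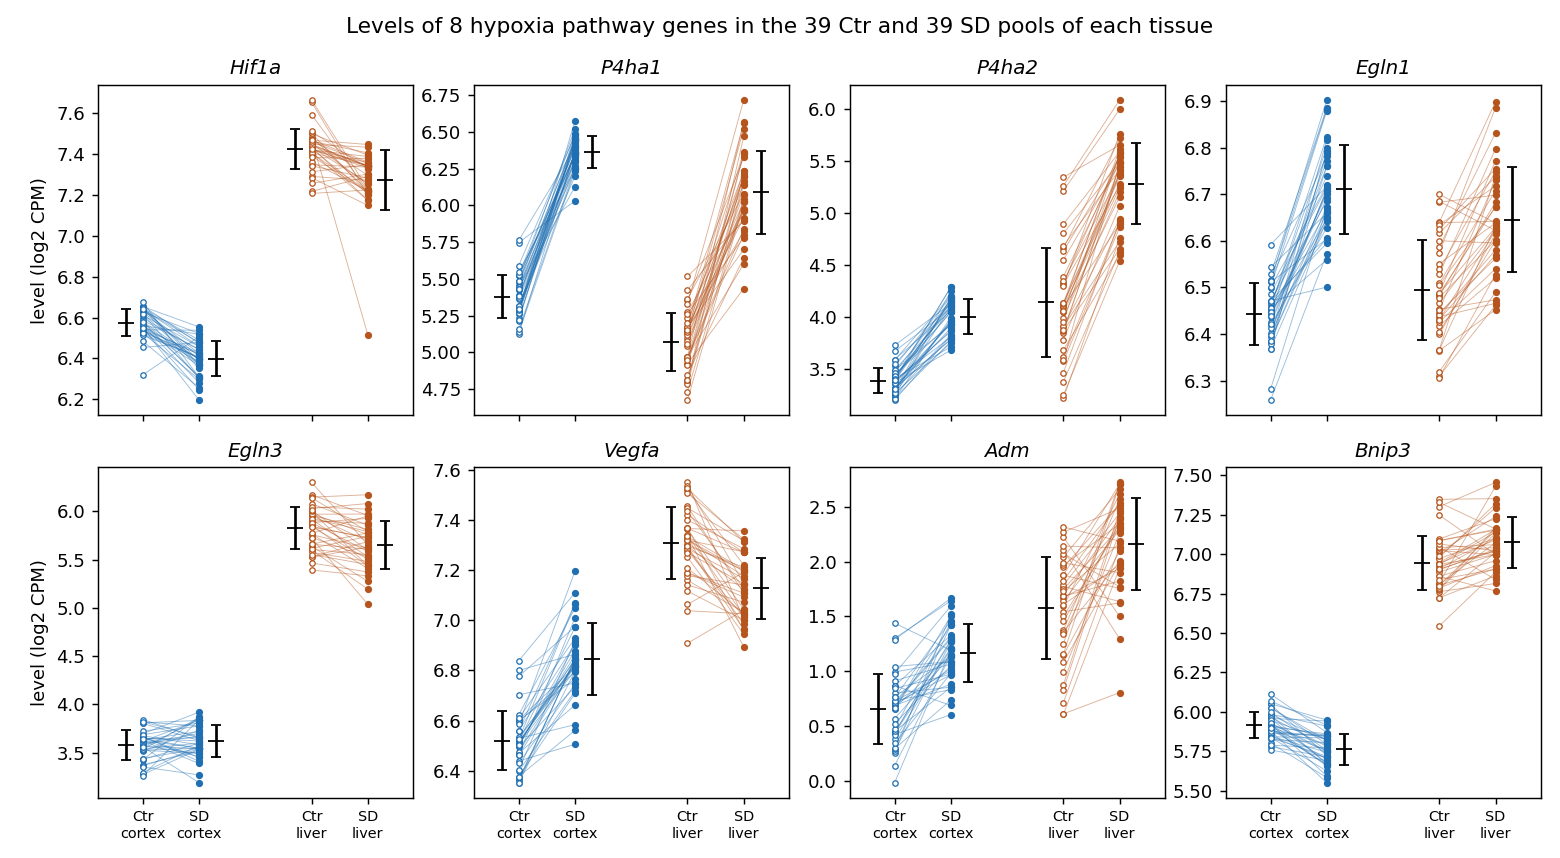
Level of each gene in log2 CPM (y axis, a separate range for each gene) in the 39 Ctr pools (open circles) and 39 SD pools (filled circles) of cortex (blue) and liver (brown), with thin lines joining the pools of a line and black bars at the mean ± SD. Every line of P4ha1 and P4ha2 climbs in both tissues, the P4ha1 circles of Ctr and SD cortex do not overlap, and 1 SD liver pool (BXD70) lies far below the others for Hif1a.

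*P4ha1* encodes the catalytic subunit of the main collagen prolyl 4-hydroxylase, the enzyme that gives collagen its stable triple helix. In cortex its level ran from 5.13 to 5.76 log2 CPM in Ctr pools (median 5.37) and from 6.03 to 6.58 in SD pools (median 6.36). All 39 SD pools lay above every Ctr pool, which was true, in either direction, of 1.4% of all genes in cortex. The mean rose from 5.38 ± 0.15 to 6.36 ± 0.11, a log2 fold change of 0.98 ± 0.029 (1.98-fold, adjusted p = 4.2e-46), higher in 39 of 39 pools. *P4ha1* ranked 6 of all cortex genes by p and 179 by size of the change. The paper had already named *P4ha1* among its most changed genes in both tissues of these data, so its ranks are no independent finding. It also lists *P4ha2* in liver, *Hif3a* in cortex and *Pfkfb3* in both tissues among its most changed genes. The rises of these genes given below are no independent findings either. The rise was smallest in BXD89 (0.28), where the Ctr pool was among the highest at 5.75 log2 CPM and the SD pool was the lowest at 6.03, and largest in the D2 pool of the second collection, DB2 (1.29).

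In liver *P4ha1* ran from 4.67 to 5.52 log2 CPM in Ctr pools (median 5.09) and from 5.43 to 6.72 in SD pools (median 6.07). A single SD pool fell within the Ctr range, and the other 38 lay above it, whereas 0.121% of all liver genes had no overlap of the groups. The log2 fold change was 1.02 ± 0.055 (2.03-fold, adjusted p = 5.2e-28), higher in 39 of 39 pools, rank 17 by p and 163 by size. Changes of single pools ran from 0.38 (BXD49) to 1.67 (BXD44), a wider spread (SD 0.34) than in cortex (SD 0.19). BXD89, with the smallest rise in cortex, rose by 1.31 in liver.

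*P4ha2* encodes a second, less abundant catalytic subunit of the same enzyme. Cortex levels ran from 3.20 to 3.73 log2 CPM in Ctr pools (median 3.38) and from 3.68 to 4.29 in SD pools (median 4.05), and 37 of 39 SD pools lay above every Ctr pool. The log2 fold change was 0.62 ± 0.033 (1.53-fold, adjusted p = 9.6e-29), higher in 39 of 39. Liver levels were far more spread, from 3.22 to 5.35 log2 CPM in Ctr pools (median 4.10) and from 4.54 to 6.09 in SD pools (median 5.38). The liver log2 fold change was 1.14 ± 0.10 (2.21-fold, adjusted p = 2.9e-16), again higher in 39 of 39, from 0.31 in BXD50 to 1.90 in BXD85, a line with fewer mice. Although the groups overlapped widely in liver, no line fell there.

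*Egln1* and *Egln3* encode dioxygenases that mark HIF alpha for degradation, and both are known as HIF targets themselves. *Egln1* ran from 6.26 to 6.59 log2 CPM in Ctr cortex (median 6.45) and from 6.50 to 6.90 in SD cortex (median 6.71). Its cortex log2 fold change was 0.27 ± 0.019 (1.20-fold, adjusted p = 8.8e-23), higher in 39 of 39 pools, with the smallest rise again in BXD89 (0.030). In liver *Egln1* ran from 6.31 to 6.70 log2 CPM in Ctr pools (median 6.48) and from 6.45 to 6.90 in SD pools (median 6.63). The liver groups overlapped more, with 12 of 39 SD pools above every Ctr pool against 36 of 39 in cortex. The liver log2 fold change was 0.15 ± 0.025 (1.11-fold, adjusted p = 5.0e-07), higher in 36 of 39.

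*Egln3* ran from 3.26 to 3.84 log2 CPM in Ctr cortex (median 3.59) and from 3.19 to 3.92 in SD cortex (median 3.599), and the groups overlapped almost wholly. Its cortex log2 fold change of 0.04 ± 0.036 was within the spread between pools (adjusted p = 0.297), with 22 of 39 pools higher. In liver it ran from 5.39 to 6.30 log2 CPM in Ctr pools (median 5.85) and from 5.04 to 6.17 in SD pools (median 5.66). There it fell, with a log2 fold change of -0.17 ± 0.052 (0.887-fold, adjusted p = 0.0046), lower in 30 of 39 pools. These hydroxylases thus changed in opposite directions in liver, *Egln1* up and *Egln3* down.

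*Vegfa* encodes the vascular endothelial growth factor A, which drives vessel growth and permeability. In cortex it ran from 6.35 to 6.84 log2 CPM in Ctr pools (median 6.51) and from 6.51 to 7.20 in SD pools (median 6.84), and 20 of 39 SD pools lay above every Ctr pool. The log2 fold change was 0.33 ± 0.029 (1.25-fold, adjusted p = 6.4e-17), higher in 39 of 39. In liver it ran from 6.91 to 7.55 log2 CPM in Ctr pools (median 7.32) and from 6.89 to 7.36 in SD pools (median 7.13). The liver log2 fold change was -0.18 ± 0.030 (0.883-fold, adjusted p = 4.6e-07), lower in 37 of 39. The fall was small beside the overlap of the groups, since only 1 SD pool lay below every Ctr pool.

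*Adm* encodes adrenomedullin, a vasodilator peptide, and was the scarcest of the 8 transcripts, at a mean of 36.1 reads in Ctr cortex libraries and 20.4 reads in Ctr liver libraries, with as few as 9 reads in a library. Cortex levels ran from -0.02 to 1.44 log2 CPM in Ctr pools (median 0.69) and from 0.60 to 1.67 in SD pools (median 1.15). The cortex log2 fold change was 0.51 ± 0.066 (1.43-fold, adjusted p = 9.8e-11), higher in 37 of 39 pools, and was 0.34 when 1 CPM was added before the logarithm (still called). Liver levels ran from 0.61 to 2.32 log2 CPM in Ctr pools (median 1.67) and from 0.80 to 2.72 in SD pools (median 2.26). The liver log2 fold change was 0.58 ± 0.10 (1.498-fold, adjusted p = 1.2e-06), higher in 31 of 39, and single pools ran from -0.82 (BXD85, a line with fewer mice) to 1.59 (BXD55). Both tissues show overlapping groups for *Adm*, and its pools differed more from each other than those of any other of the 8 genes in their change.

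*Hif1a*, the factor itself, was slightly lower after SD. Cortex levels ran from 6.32 to 6.68 log2 CPM in Ctr pools (median 6.58) and from 6.20 to 6.55 in SD pools (median 6.40). The cortex log2 fold change was -0.18 ± 0.017 (0.885-fold, adjusted p = 5.1e-15), lower in 37 of 39. In liver it ran from 7.21 to 7.66 log2 CPM in Ctr pools (median 7.43) and from 6.51 to 7.45 in SD pools (median 7.30). The liver log2 fold change was -0.15 ± 0.028 (0.902-fold, adjusted p = 6.6e-06), lower in 35 of 39. The largest fall by far was that of BXD70 in liver (-0.96), whose SD library had the fewest reads of the liver libraries, 4681100. Without BXD70 the liver log2 fold change was -0.13 (adjusted p = 2.3e-07).

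*Bnip3* encodes a protein of the outer mitochondrial membrane that marks mitochondria for autophagy. In cortex it ran from 5.76 to 6.11 log2 CPM in Ctr pools (median 5.91) and from 5.55 to 5.95 in SD pools (median 5.76). The log2 fold change was -0.15 ± 0.021 (0.899-fold, adjusted p = 4.5e-10), lower in 39 of 39, and 20 of 39 SD pools lay below every Ctr pool. In liver it ran from 6.54 to 7.35 log2 CPM in Ctr pools (median 6.93) and from 6.77 to 7.45 in SD pools (median 7.06). The liver log2 fold change was 0.13 ± 0.037 (1.10-fold, adjusted p = 0.0023), higher in 33 of 39. Levels of the groups overlapped almost wholly in liver.

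The liver change of *Bnip3* moved with the read total, which is the sum of the reads counted on the listed genes and not of all reads sequenced. Across the 39 pools, its change correlated with the log2 ratio of the read totals of the SD and Ctr libraries at r = -0.86 (Spearman rho = -0.84, permutation p = 1e-05 for each, the smallest the resamples can give, adjusted p = 0.00016 over 16 relations). Without the 2 pools farthest from the median ratio r was -0.82. A line whose SD library had a smaller read total than its Ctr library thus tended to show a higher *Bnip3* value after SD. The *Bnip3* reads themselves rose with the read total by a slope of 0.40 on log2 scales in liver and 0.90 in cortex, where 1 would mean in proportion. Slopes off 1 were not particular to *Bnip3* in liver. They were 0.53 for *P4ha2*, 0.92 for *Egln1*, 1.17 for *Egln3*, 1.33 for *Hif1a* and *P4ha1*, 1.43 for *Vegfa* and 1.51 for *Adm*. Of the other 15 relations, that of *Vegfa* in liver passed too (r = 0.46, rho = 0.51, permutation p = 0.0032 and 0.00096, adjusted p = 0.0254 and 0.0077, r = 0.37 without the 2 farthest pools). The read totals did not lean one way after SD, with a larger total after SD in 18 of 39 liver pools and a mean log2 ratio of -0.016. With the read total of each library as a covariate, a check chosen after these values were seen, all 8 liver genes were still called, *Bnip3* at 0.12 (adjusted p = 0.00017) and *Vegfa* at -0.17 (adjusted p = 1.7e-07).

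**Figure D2:**
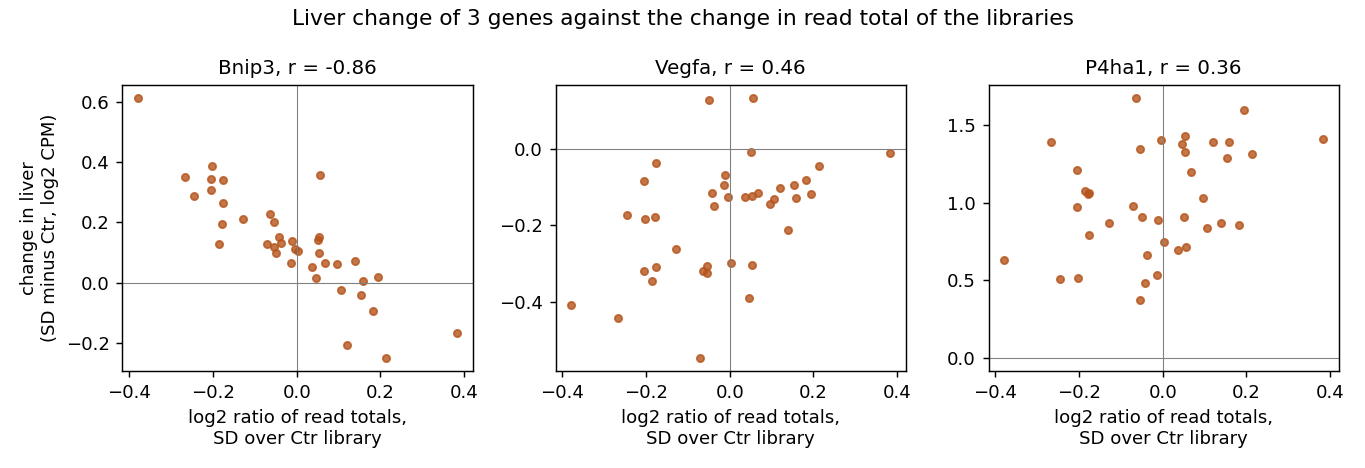
Change of Bnip3, Vegfa and P4ha1 in liver (y axis, SD minus Ctr in log2 CPM, 1 point per pool, 39 pools) against the log2 ratio of the read totals of the SD and Ctr libraries (x axis). The Bnip3 points descend steeply from left to right (r = -0.86) and the Vegfa points climb more loosely (r = 0.46), whereas P4ha1 lies above 0 at every ratio.

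The tissues were compared within pools, by subtracting the cortex change from the liver change in each of the 39 pools, since the 2 tissues were normalized separately. The response differed between tissues for 5 of 8 genes, against 57.7% of the 12695 genes listed in both. *P4ha2* rose more in liver than in cortex (difference 0.53 ± 0.054 on the log2 scale, adjusted p = 5.7e-11), in 35 of 39 pools. *Egln1* rose less in liver (-0.12 ± 0.025, adjusted p = 9.2e-05), with 9 of 39 pools above their cortex value. *Egln3* likewise lay lower in liver (-0.21 ± 0.051, adjusted p = 0.00046), with 9 of 39 above. For *Vegfa* the difference was -0.50 ± 0.033 (adjusted p = 1.8e-16), and the liver change lay below the cortex change in all 39 pools. For *Bnip3* it was 0.29 ± 0.032 (adjusted p = 4.8e-10), with 37 of 39 pools above. The relation to the read totals described for *Bnip3* and *Vegfa* touches this comparison too. With the changes of the read totals as covariates their differences were 0.27 and -0.49. For *P4ha1* the difference of 0.03 ± 0.055 did not pass the test (adjusted p = 0.621), nor did those of *Hif1a* (0.03 ± 0.030, adjusted p = 0.460) and *Adm* (0.07 ± 0.099, adjusted p = 0.565), which does not show that these genes respond alike. Single pools differed by -0.61 to 1.03 for *P4ha1*.

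**Figure D3:**
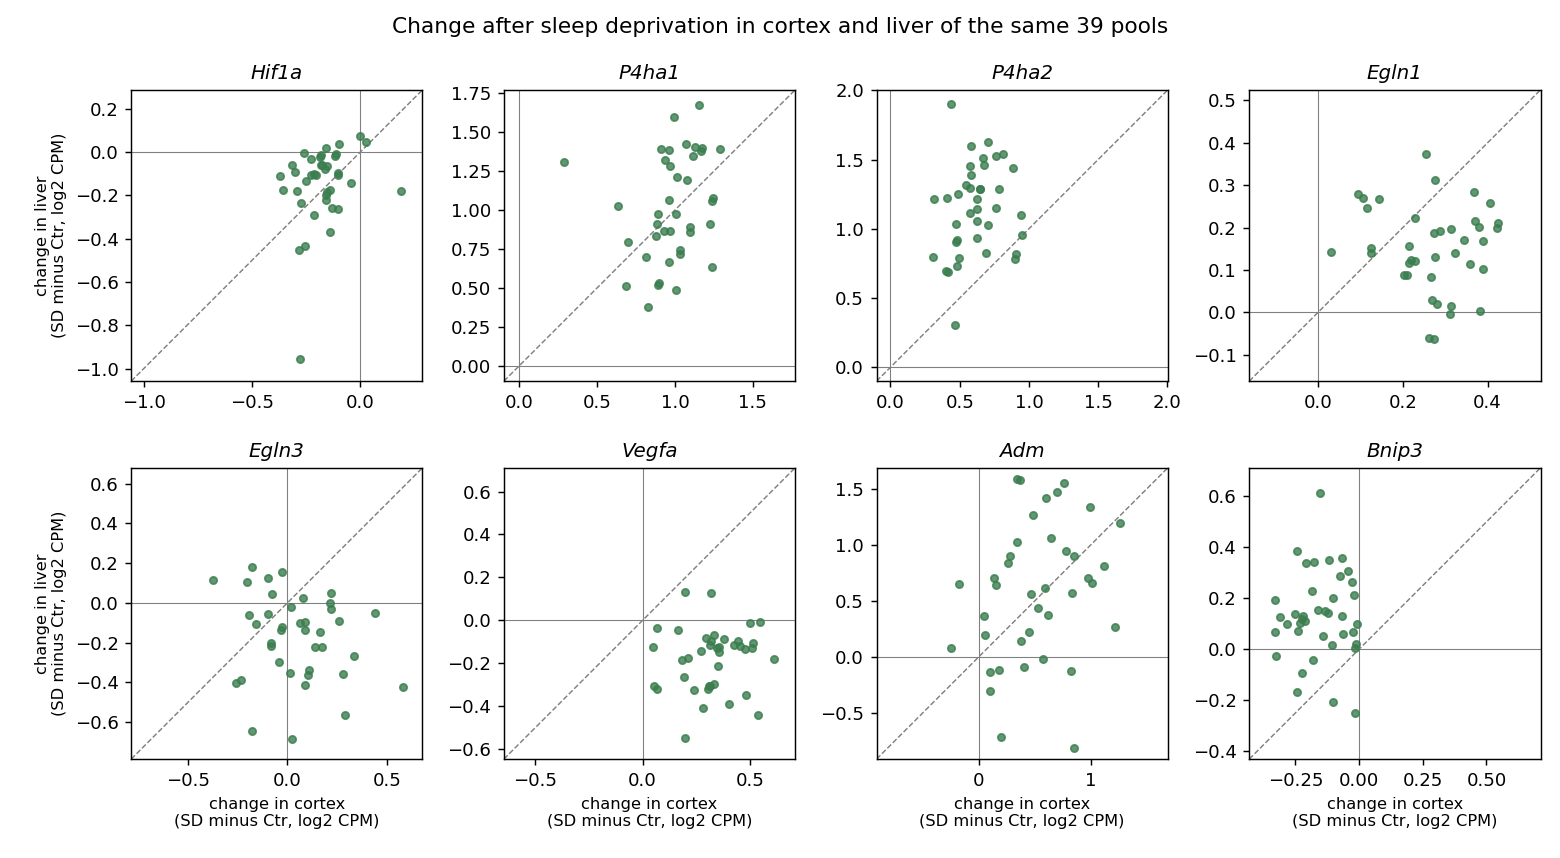
Change after SD in liver (y axis) against the change in cortex (x axis) of the same 39 pools for each gene, in log2 CPM, with grey lines at 0 and a dashed line where both changes are equal. P4ha1 and P4ha2 fill the upper right, Vegfa sits right of and below 0 in nearly every pool, and Bnip3 sits left of 0 with most pools above it.

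Pools with a larger change in cortex did not detectably have a larger change in liver. Over 8 relations, Pearson's r between the changes ran from -0.20 (*Egln3*) to 0.26 (*Hif1a*), and 0 passed after adjustment. At an unadjusted p under 0.05, 0 passed by Pearson's r and 1 by Spearman's rho, *P4ha1* (rho = 0.40, permutation p = 0.0125, adjusted p = 0.1, against r = 0.24, permutation p = 0.139, adjusted p = 0.371). Without the 2 pools farthest from the median cortex change, which include BXD89, r was 0.45 for *P4ha1*.

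Lines kept their order of levels for some of the genes and not for others. Between the Ctr and SD pools of a line, which are different mice, 8 of 16 relations passed (permutation tests, adjusted over 16). By the study's methods these mice were to be paired within experimental cohorts, so genotype and cohort cannot be told apart in these relations. *P4ha2* in liver had the closest relation (r = 0.78, rho = 0.76, permutation p = 1e-05 for each, the smallest the resamples can give, adjusted p = 0.00016, r = 0.76 without the 2 farthest pools). *Egln1* in liver followed (r = 0.58, rho = 0.64, permutation p = 0.00013 and 3e-05, adjusted p = 0.00069 and 0.00024, r = 0.66 without the 2 farthest), and *Egln3* in liver was near it (r = 0.58, rho = 0.61, permutation p = 1e-04 and 5e-05, adjusted p = 0.00069 and 0.00027, r = 0.59 without the 2 farthest). The others that passed were *Bnip3* (r = 0.48) and *Vegfa* (r = 0.39) in liver, and *Bnip3* (r = 0.42), *Vegfa* (r = 0.41) and *P4ha2* (r = 0.37) in cortex. By rank the *P4ha2* relation in cortex missed the threshold (rho = 0.35, adjusted p = 0.0558). *P4ha1*, which rose in every pool, showed no detectable order of lines, with r = -0.13 in cortex (permutation p = 0.410, adjusted p = 0.547) and r = 0.04 in liver (permutation p = 0.824, adjusted p = 0.842). Neither did *Hif1a* (r = 0.04 in cortex and -0.06 in liver) nor *Adm* (r = 0.17 and 0.03), the gene with the fewest reads. Within the 33 BXD/RwwJ lines alone 6 of 16 relations passed, without *P4ha2* in cortex (r = 0.38, adjusted p = 0.0699) and *Vegfa* in liver (r = 0.34, adjusted p = 0.107).

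**Figure D4:**
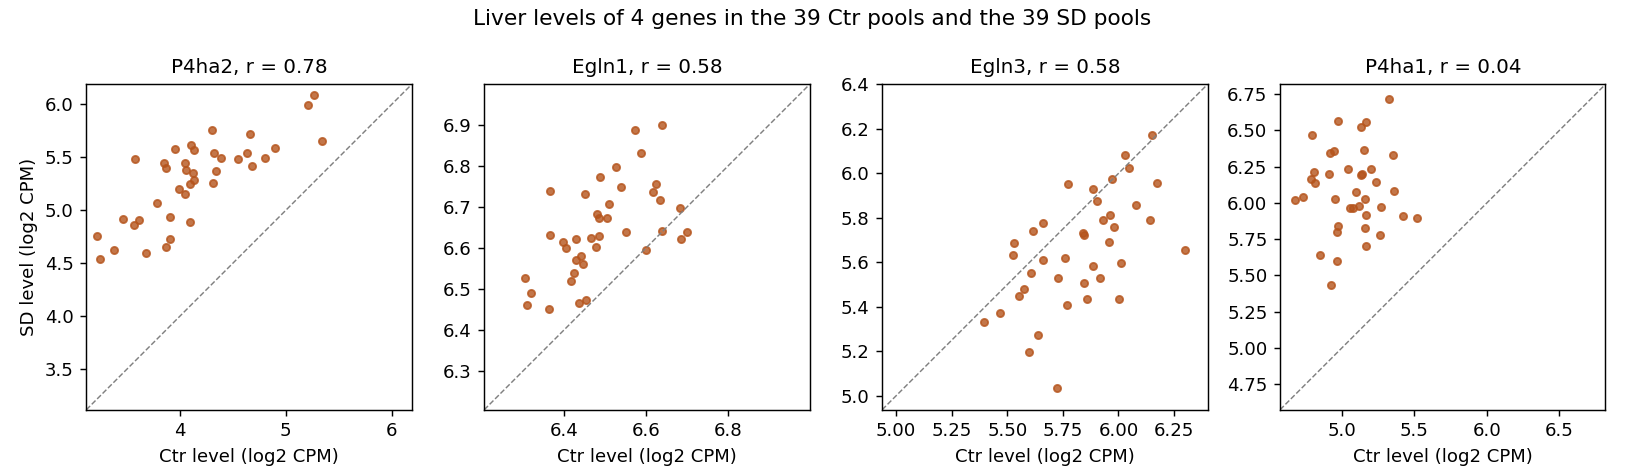
Liver level in the SD pool (y axis) against the Ctr pool (x axis) of each of the 39 pools, in log2 CPM, with a dashed line of equal levels. P4ha2 pools climb together from lower left to upper right above the dashed line (r = 0.78), Egln1 and Egln3 more loosely (r = 0.58 each), and P4ha1 forms a round cloud above the line (r = 0.04).

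Among themselves the changes of the genes moved together only weakly across pools. These values share their libraries, so depth and normalization are common to both sides. The change of *Egln1* in cortex ran against that of *Hif1a* (r = -0.48, rho = -0.46, permutation p = 0.0020 and 0.0032, adjusted p = 0.0277 and 0.0451 over 14 relations, r = -0.34 without the 2 farthest pools). The other 13 relations with *Hif1a* did not pass, their r running from -0.38 (*Adm* in liver) to 0.33 (*Vegfa* in liver). The *Vegfa* relation in liver passed within the 33 BXD/RwwJ lines (r = 0.48, adjusted p = 0.0435) but its r was 0.15 over the 39 pools without the 2 farthest from the median *Hif1a* change. Between the changes of *P4ha1* and *P4ha2*, r was 0.48 in cortex and 0.10 in liver, given as a description.

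Over all genes, those whose change across the 39 pools was most like that of *P4ha1* in cortex were *Hsp90b1* (r = 0.89), *Pdp1* (r = 0.84) and *Pdia3* (r = 0.82). *Hsp90b1* and *Pdia3* encode chaperones of the endoplasmic reticulum and *Pdp1* a phosphatase that activates pyruvate dehydrogenase. In liver they were the heat shock gene *Hspa1a* (r = 0.68), *Trmt1l* (r = 0.65) and the co-chaperone gene *Bag3* (r = 0.65). For *P4ha2* they were *Tmem86b* (r = 0.67), *Nadk2* (r = 0.65) and *Ttll3* (r = 0.65) in cortex, and *Pogk* (r = 0.57), *Irf1* (r = 0.56) and *Ptgds* (r = 0.55) in liver. For *Egln1* they were *Ndufb4* (r = 0.73), *Chka* (r = 0.72) and *Mapk11* (r = 0.71) in cortex, and *Glrx* (r = 0.63), *D1Ertd622e* (r = 0.62) and *Nudt19* (r = 0.60) in liver. *Egln3* was closest to *Arhgap15* (r = 0.67), *Spock1* (r = 0.65) and *Ube2o* (r = 0.63) in cortex, and to *Phlda1* (r = 0.66), *Hhex* (r = 0.65) and *Tbccd1* (r = 0.65) in liver.
*Vegfa* was closest to *Mirg* (r = 0.62), *Evpl* (r = 0.59) and *Gpatch4* (r = 0.59) in cortex, and to *6720401G13Rik* (r = 0.76), *Ogt* (r = 0.75) and *Mug-ps1* (r = 0.72) in liver. *Adm* was closest to *Ppapdc3* (r = 0.68), *Sstr3* (r = 0.61) and *Chgb* (r = 0.61) in cortex, and to *Hmg20b* (r = 0.63), *Med25* (r = 0.59) and *Dusp2* (r = 0.59) in liver. *Bnip3* was closest to *Fundc2* (r = 0.71), *Anxa7* (r = 0.59) and *Tcte1* (r = 0.58) in cortex. In liver it was closest to *Ctsh*, *Uox* and *Rpl5* (each r = 0.89), at values beside which the relation of *Bnip3* to the read totals stands. *Hif1a* was closest to *Hdgfrp3* (r = 0.80), *Pcm1* (r = 0.80) and *Tmx4* (r = 0.79) in cortex, and to *Srp72* (r = 0.87), *Cltc* and *Hook1* (each r = 0.86) in liver. These are the highest of the correlations with every gene listed, so no test was made.

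Levels of different genes were set beside each other per length, as CPM per kilobase of exon. The length is that of all GENCODE exons of a gene joined, whereas the reads were counted on RefSeq genes. How far the order of close neighbours depends on this was not tested. In Ctr cortex the order was *Bnip3* (26.7 ± 1.6 CPM per kilobase), *Egln1* (24.8 ± 1.1), *Vegfa* (21.4 ± 1.8), *Hif1a* (16.2 ± 0.74), *P4ha1* (10.1 ± 1.1), *Egln3* (4.49 ± 0.47), *P4ha2* (1.68 ± 0.15) and *Adm* (1.13 ± 0.27). The ranges of *Bnip3* and *Egln1*, of *Egln1* and *Vegfa* and of *P4ha2* and *Adm* overlapped, while the other neighbours in this order did not. In Ctr liver the order was *Bnip3* (54.7 ± 6.7 CPM per kilobase), *Vegfa* (37.0 ± 3.6), *Hif1a* (29.2 ± 2.0), *Egln1* (25.7 ± 1.9), *Egln3* (21.5 ± 3.2), *P4ha1* (8.20 ± 1.1), *P4ha2* (2.999 ± 1.2) and *Adm* (2.15 ± 0.68). There the only neighbours whose ranges did not overlap were *Egln3* and *P4ha1*. After SD *P4ha1* stood at 20.04 CPM per kilobase in cortex and 16.8 in liver, and *P4ha2* at 2.58 and 6.44.

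The parental strains were compared over their 8 libraries per tissue (2 collections, Ctr and SD), with the condition as a term. In cortex, 2 of 8 genes were called, against 25.5% of all genes, and in liver 2 of 8, against 17.9%. *Hif1a* was higher in D2 than in B6 in cortex (difference 0.12 ± 0.042 on the log2 scale, adjusted p = 0.0461). Its Ctr levels were 6.48 and 6.57 log2 CPM in B6 and 6.58 and 6.65 in D2, and its SD levels 6.26 and 6.31 in B6 and 6.40 and 6.49 in D2. The strains did not overlap within either condition. *Egln1* was lower in D2 in cortex (-0.12 ± 0.040, adjusted p = 0.0437). In liver *P4ha1* was higher in D2 (0.36 ± 0.12, adjusted p = 0.0438) and *Vegfa* lower (-0.25 ± 0.065, adjusted p = 0.0150). The *Vegfa* liver levels in Ctr were 7.37 and 7.52 log2 CPM in B6 and 7.21 and 7.34 in D2. In SD they were 7.27 and 7.31 in B6 and 7.03 and 6.89 in D2. Both D2 libraries thus lay below both B6 libraries within each condition. Both D2 libraries of SD liver also had smaller read totals than both B6 libraries, whereas the totals of the strains overlapped in Ctr liver. Liver *Vegfa* reads rose with the read total by a slope of 1.43, as given above. The part of the read totals in the liver strain differences was not tested. With the collection as a replicate block, *Egln3* in cortex was called as well (0.27 ± 0.095, adjusted p = 0.0501 without and 0.0396 with the block).

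These strain calls were often lost when 1 library was left out, while the differences kept their sign. Over those fits they ran from 0.096 to 0.147 for *Hif1a* and from -0.141 to -0.093 for *Egln1* in cortex. In liver they ran from 0.24 to 0.45 for *P4ha1* and from -0.30 to -0.21 for *Vegfa*. Leaving out 1 of the 8 libraries at a time, *Hif1a* and *Egln1* in cortex each stayed past the threshold in 1 of 8 fits, the one without the Ctr library of B62 (adjusted p 0.0276 to 0.136 for *Hif1a* and 0.0264 to 0.122 for *Egln1* over the 8 fits). *P4ha1* in liver stayed in 3 of 8 and was lost without the Ctr library of B61 (adjusted p = 0.0681), B62 (0.0623) or DB2 (0.0966) or the SD library of B62 (0.149) or DB2 (0.143). *Vegfa* in liver stayed in 5 of 8 and was lost without the Ctr library of B62 (adjusted p = 0.0510) or the SD library of B62 (0.0589) or DB2 (0.0533). Other genes passed only with a library left out, as did *Egln3* (difference 0.35, adjusted p = 0.0162) and *Adm* (0.64, adjusted p = 0.0153) in cortex and *Egln1* in liver (0.24, adjusted p = 0.0247), each without the Ctr library of DB2. In cortex *Vegfa* passed without the Ctr library of B61 (0.16, adjusted p = 0.0457) and *Bnip3* without the SD library of DB2 (-0.14, adjusted p = 0.0416).

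The SD response of single parental pools was as follows, with no test of the difference between strains. *P4ha1* in cortex rose by 0.97 and 0.93 in the B6 pools and by 1.24 and 1.29 in the D2 pools. *P4ha2* in liver rose by 0.93 and 0.73 in B6 and by 1.62 and 1.46 in D2. *Vegfa* in cortex rose by 0.32 and 0.35 in B6 and by 0.61 and 0.54 in D2. Both D2 pools thus lay above both B6 pools for these 3, which were chosen after their values were seen. The same order held in cortex for *P4ha2* (0.63 and 0.48 in B6, 0.70 and 0.67 in D2) and *Hif1a* (-0.23 and -0.26, -0.18 and -0.16). It held in liver for *Bnip3* (-0.04 and 0.07 in B6, 0.19 and 0.35 in D2). The log2 ratio of the liver read totals, SD over Ctr, was 0.15 and 0.14 in B6 and -0.18 and -0.27 in D2. Its part in the liver values was not tested. The order was the opposite for *Egln1* in cortex, which rose by 0.36 and 0.34 in B6 and by 0.28 and 0.25 in D2. It was also the opposite for *Egln3* in liver, with changes of 0.12 and 0.05 in B6 and of -0.11 and -0.57 in D2. In the F1 pools *P4ha1* rose by 1.01 (BD) and 1.13 (DB) in cortex and by 1.21 and 1.41 in liver, and *P4ha2* by 1.44 and 1.53 in liver.

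The 4 BXD/TyJ lines, which did not enter these tests, moved likewise for several genes. *P4ha1* rose in 4 of 4 lines in cortex (0.91 to 1.20) and in liver (1.04 to 2.02). *P4ha2* rose in 4 of 4 in cortex (0.57 to 0.99) and in liver (1.39 to 1.48). *Egln1* rose in 4 of 4 in both tissues, *Vegfa* rose in 4 of 4 in cortex (0.25 to 0.45) and fell in 4 of 4 in liver (-0.28 to -0.03). *Bnip3* fell in 4 of 4 in cortex and rose in 4 of 4 in liver (0.10 to 0.25). *Hif1a* was lower in 3 of 4 in cortex and 4 of 4 in liver, and *Adm* higher in 4 of 4 in cortex and 3 of 4 in liver. *Egln3* was lower in 4 of 4 in liver and higher in 3 of 4 in cortex.

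The other genes of the HIF system were read from lists. Beside the counts of every list below stand the shares over all genes. In cortex 33% of all genes were called higher and 35.4% lower, and in liver 21.5% higher and 22.6% lower. Of 15 factors and regulators listed in cortex, 10 were higher, 2 lower and 3 not called (median log2 fold change 0.08), and of 14 listed in liver, 4 were higher, 1 lower and 9 not called (median 0.03). Under a replicate block for the line 3 were lower in cortex and 5 higher in liver. *Hif3a*, an alpha subunit whose short forms inhibit the others, rose by 1.19 ± 0.082 in cortex (adjusted p = 9.5e-23, 39 of 39 pools) and by 1.04 ± 0.22 in liver (adjusted p = 6.1e-05, 33 of 39). Its liver level was close to the floor, at a mean of -1.46 log2 CPM in Ctr where a gene with 0 reads sits at -2.77, so that the liver fold depends on the prior count. *Epas1*, which encodes the HIF-2 alpha subunit, rose by 0.21 ± 0.036 in cortex (adjusted p = 3.3e-07) and 0.17 ± 0.044 in liver (adjusted p = 0.0012), each in 37 of 39 pools. *Vhl*, which encodes the protein that leads HIF alpha to degradation, rose in liver by 0.29 ± 0.027 (adjusted p = 3.2e-15, 39 of 39), with 0.0036 ± 0.016 in cortex (adjusted p = 0.859).

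The partner *Arnt* rose in cortex by 0.11 ± 0.017 (adjusted p = 1.6e-08), with -0.04 ± 0.037 in liver (adjusted p = 0.409). The hydroxylase *Egln2* rose in cortex by 0.15 ± 0.018 (adjusted p = 1.6e-12), with 0.03 ± 0.029 in liver (adjusted p = 0.421). *Hif1an*, the asparagine hydroxylase that blocks HIF activity, rose in cortex by 0.21 ± 0.045 (adjusted p = 3.6e-05, 39 of 39 pools). Its liver value of 0.07 ± 0.030 missed the threshold (adjusted p = 0.0596) and passed it once the line was a replicate block (0.0304). The falls were those of *Arnt2* (-0.11) and *P4htm* (-0.09) in cortex, and of the HIF antagonist *Cited2* (-0.21) in liver.

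Of 46 other textbook HIF targets listed in each tissue, 22 were higher, 9 lower and 15 not called in cortex (median 0.04), and 12 higher, 6 lower and 28 not called in liver (median 0.04). A replicate block for the line gave 23 higher and 9 lower in cortex and 14 higher and 7 lower in liver. Over all genes 68.4% were called in cortex and 44.2% in liver, or 76.3% and 53.9% with the block. *Pfkfb3*, which makes the activator of glycolysis fructose 2,6-bisphosphate, rose by 0.86 ± 0.037 in cortex and 1.42 ± 0.12 in liver, in 39 of 39 pools in both (adjusted p = 7.6e-35 and 8.7e-17). The carbonic anhydrase gene *Car12* rose in cortex by 1.05 ± 0.11 (adjusted p = 1.8e-14) and the lipase inhibitor gene *Angptl4* in liver by 0.98 ± 0.053 (adjusted p = 7.8e-28). The largest falls were those of *Tfrc*, the transferrin receptor (-0.67), and *Slc16a3*, a lactate carrier (-0.57), in cortex, and of *Ppp1r3c* (-0.45) and *Hk2* (-0.38) in liver. *Slc2a1*, the glucose carrier of the blood-brain barrier, rose in cortex by 0.47 ± 0.038 in 38 of 39 pools, with -0.09 ± 0.050 in liver (adjusted p = 0.148). *Pdk1*, a kinase that closes entry of pyruvate into mitochondria, fell in both, by 0.11 in cortex and by 0.11 in liver.

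Of 12 collagen-modifying genes listed in cortex, 7 were higher, 3 lower and 2 not called (median 0.12), and of 11 in liver, 5 were higher, 0 lower and 6 not called (median 0.08). A replicate block for the line gave 8 higher in cortex, the added one being *Ppib* (0.06, adjusted p = 0.243 without and 0.00022 with the block), and left the other counts as they were. *Plod1* and *Plod2* also stand on the list of HIF targets. *Serpinh1*, the collagen chaperone HSP47, rose by 0.78 ± 0.055 in cortex and 1.04 ± 0.053 in liver, in 39 of 39 pools in both (adjusted p = 4.9e-22 and 4.7e-29). *P4ha3*, the third alpha subunit, rose in cortex (0.56 ± 0.13) and *Leprel1*, a prolyl 3-hydroxylase, in liver (0.58 ± 0.13). *P4hb*, the beta subunit that *P4ha1* and *P4ha2* need, rose in cortex by 0.21 ± 0.018 in 38 of 39 pools, with 0.02 ± 0.032 in liver (adjusted p = 0.582). *Plod2* (-0.31) and *Crtap* (-0.28) had the largest falls in cortex.

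Of 12 receptors and relatives of *Vegfa* and *Adm* listed in cortex, 4 were higher, 7 lower and 1 not called (median -0.15), and of 11 in liver, 1 was higher, 3 lower and 7 not called (median -0.07). Under a replicate block for the line the liver counts were 2 higher and 4 lower. *Kdr*, the main *Vegfa* receptor, fell by 0.20 in cortex and by 0.16 in liver. *Flt1*, the decoy-like receptor, rose in cortex by 0.13 ± 0.035, with 0.08 ± 0.080 in liver (adjusted p = 0.466). *Calcrl*, the adrenomedullin receptor, fell by 0.23 in cortex and by 0.19 in liver, in 32 of 39 pools each, while its partner *Ramp2* rose by 0.41 and 0.19. *Nrp1* rose in cortex (0.35), the related ligands *Figf* (-0.67) and *Vegfc* (-0.30) had the largest falls there, and *Ramp3* fell in cortex (-0.28) and in liver (-0.41), where it was close to the floor (mean -0.91 log2 CPM in Ctr).

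Endothelial cells carry most of these receptors, and their markers moved as well. Of 8 endothelial markers, 1 rose (*Pecam1*, 0.17), 5 fell and 2 were not called in cortex, with the largest falls in *Cldn5* (-0.24) and *Egfl7* (-0.22). In liver *Esam* (0.29) and *Pecam1* (0.25) rose, *Cldn5* fell (-0.37) and 5 were not called, with 3 higher and 1 lower when the line was a replicate block. Their summed level ran from 7.24 to 7.81 on the log2 CPM scale in Ctr cortex and from 7.11 to 7.58 in SD cortex, and from 7.72 to 8.60 and 7.72 to 8.62 in liver. The part of the endothelial markers in the changes of *Vegfa*, *Adm* and their receptors was not tested.

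Of 8 *Bnip3* partners, 4 were higher, 3 lower and 1 not called in cortex (median 0.04), and 3 higher, 1 lower and 4 not called in liver (median 0.03). *Bcl2* and *Bcl2l1* encode inhibitors of apoptosis that *Bnip3* binds. *Bcl2* rose in cortex (0.64), with -0.0082 in liver (adjusted p = 0.957), and *Bcl2l1* rose in both (0.30 and 0.31). *Rheb* rose in both (0.33 and 0.14), and the ubiquitin ligase gene *Park2* fell in both (-0.33 and -0.68). *Bnip3l*, the closest relative of *Bnip3*, rose in liver by 0.06 ± 0.023 (adjusted p = 0.0198), with 0.0065 ± 0.023 in cortex (adjusted p = 0.818). *Pink1* fell in cortex (-0.11).

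**Figure D5:**
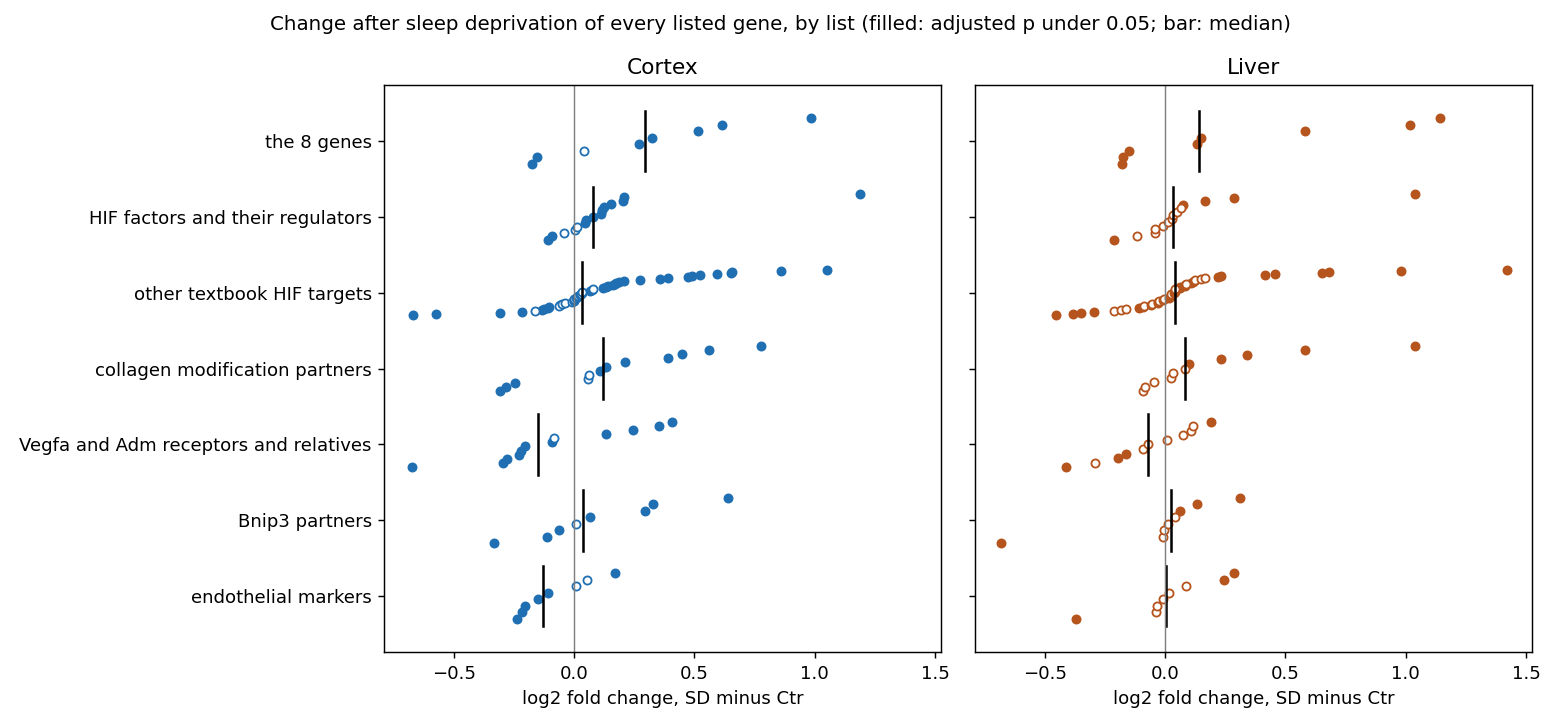
Log2 fold change after SD (x axis) of every listed gene in cortex (left) and liver (right), by list (y axis), with filled circles for an adjusted p under 0.05, open circles for genes not called and a black bar at the median of the list. P4ha1 and P4ha2 stand far right among the 8 genes in liver (1.02 and 1.14), and the medians of the other lists lie between -0.15 and 0.12.

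The remaining marker lists were read for RNA of other cells, beside 68.4% of all genes called in cortex and 44.2% in liver. In cortex 2 of 8 neuron and glia markers fell (*Syt1*, -0.16, and *Slc17a7*, -0.12) and 0 rose, or 1 with the line as a replicate block. In liver 0 of 8 hepatocyte markers were called by limma, 0 at an unadjusted p under 0.05 and 1 (*Tat*) with the block. Their summed level ran from 10.8 to 11.6 on the log2 CPM scale in Ctr and from 10.8 to 11.5 in SD liver. *Ttr*, the 1 gene of the hepatocyte list that was listed in cortex, was not called there. Its level differed widely between cortex pools, from 0.86 to 7.77 log2 CPM in Ctr and from 1.49 to 8.57 in SD. Which cells carry *Ttr* in these cortex pools was not tested. The 5 neuron and glia markers listed in liver gave 0 higher and 3 lower, with the largest fall in *Syt1* (-0.82), and 1 higher and 4 lower with the block. Of 8 macrophage markers, 6 were listed in cortex with 3 higher, led by *C1qb* (0.20) and *C1qc* (0.20), and 1 lower (*Cx3cr1*, -0.14). In liver 8 were listed with 0 called by limma and 0 at an unadjusted p under 0.05, or 2 higher and 1 lower with the block. Of the erythroid markers, the globin genes were not listed in either tissue. Choroid plexus markers gave 1 higher (*Prlr*, 0.66) of 5 listed in cortex and 1 lower (*Slc4a5*, -0.55) of 4 listed in liver. The part of these cells in the changes of the 8 genes was not tested.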

How the data were processed

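Poly(A) RNA of cortex and liver was pooled across mice of each line, separately for SD and Ctr, so that 1 library stands for a pool. Per the study's methods, stranded single-end reads were aligned with STAR in 2-pass mode to mouse build MGSCv37 (mm9) and counted per RefSeq gene with htseq-count, genes of low mean count were left out, and TMM scaling was applied. The deposited values are log2 CPM of each tissue and condition, made by the authors with a small prior count and filtered separately in the tissues, which hides genes below the filter. A gene with 0 reads sits at -4.51 in Ctr and -4.52 in SD cortex, and at -2.77 in Ctr and -2.75 in SD liver. The values of the conditions were thus computed apart, and a change after SD crosses that step. From the deposited log2 CPM values, whole reads were recovered within a tolerance of 0.02 reads for 100% of values, which gave the read totals.

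SD and Ctr were compared with limma 3.58.1 in R 4.3.3 (empirical Bayes with a variance trend, two-sided) over 39 pools per condition without a block, with Benjamini-Hochberg adjustment over all genes listed. The change in liver minus that in cortex was fitted within pools, and strains with the condition as a term. Pools are mostly of different genotypes, so p-values measure the spread between genotypes as well as between mice. Correlations had permutation tests with 100000 resamples (SciPy 1.17.1). The line pairs the pools, since both pools of a line share their genotype. The study also aimed to pair SD and Ctr mice within each experimental cohort, so genotype and cohort cannot be told apart here. Deviations from the group means correlated within lines at a median of 0.614 in cortex (lowest 0.299) and 0.475 in liver (lowest 0.169). Between lines the medians were -0.0197 and -0.0180. The line as a replicate block was an alternative fit. voom on the recovered reads called 68.5% of genes in cortex and 44.5% in liver. The main fits were also run on simulated data with known changes. There the pools of a line shared no line effect, unlike the pools here, so that run does not show how the fits handle it. No 2 libraries were identical. Gene positions are from GENCODE for NCBIM37, and promoter sequences from RefSeq for GRCm38.p6, with no coordinates carried between builds.

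The 8 genes and all lists were chosen with earlier results of these data known. Of each list, the 2 largest called rises and falls per tissue were named, with *Epas1*, *Vhl*, *Hif1an*, *Egln2*, *Arnt*, *P4hb*, *Slc2a1*, *Pdk1*, *Kdr*, *Flt1*, *Calcrl* and *Bnip3l*, and for each of the 8 genes the 3 genes with the most similar change, and some marker results are not reported here. The alternatives were other scalings, pseudocounts, filters and sets of lines, each line left out in turn, and, chosen after seeing the data, the read total as a covariate. Genes of near-identical copies could share reads, which was not tested.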

Additional observations from a re-analysis of the deposited data

Results flagged for a closer look

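The response to SD differed between the tissues for 5 of the 8 genes by the test of the difference itself, taken as the liver change minus the cortex change of the same pools. By the same test 57.7% of the 12695 genes listed in both tissues were called. The difference was 0.53 for *P4ha2*, -0.12 for *Egln1*, -0.21 for *Egln3*, -0.50 for *Vegfa* and 0.29 for *Bnip3* on the log2 scale. For *Vegfa* and *Bnip3* the change was called in opposite directions in the tissues, and the values of both in liver moved with the read totals as described above. The search for single libraries that stand apart was not applied, since it is meant for groups of at most 10 samples.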

How the results depend on the processing

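The 7 calls in cortex and the 8 in liver after SD, and the 5 differences between the tissues, kept their direction and their side of the threshold under every alternative that was run and with each of the 39 pools left out (7 to 7, 8 to 8 and 5 to 5 genes). Under a replicate block for the line, the counts after SD were 7 in cortex and 8 in liver, and the block changed no call of the 8 genes after SD. Without a replicate block, as an interaction of condition and tissue, 5 differences between the tissues were called. With the collection as a replicate block, 3 genes differed between the strains in cortex and 2 in liver, and *Egln3* in cortex was the only call it changed. The strain calls were the least stable of these results. Leaving out 1 library at a time gave 0 to 2 calls in cortex and 0 to 2 in liver. Without a variance trend limma called 0 in cortex and 0 in liver (3 and 2 at an unadjusted p under 0.05), and the cause was not tested. Centring each library on its median gave an adjusted p of 0.0711 for *Egln1* and 0.0432 for *Egln3* in cortex, and a filter on low values gave 0.0471 for *Egln3*. Of the relations with the change of *Hif1a*, 2 passed in the 33 BXD/RwwJ lines alone against 1 in all pools, the added one being *Vegfa* in liver, in a set of fewer samples. No scaling moved the median of all genes by more than 0.0061 on the log2 scale. Of the 8 genes, *Adm* had the fewest reads, with as few as 21 in a cortex library and 9 in a liver library.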
